A study of Mus musculus with 96 samples.

Results

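Sarcomere genes encode the proteins of the contractile unit of striated muscle. The 45 genes described here were set by name: 13 genes of the thick filament, 17 of the thin filament, 4 of titin and the M-line, 8 of the Z-disc and 3 accessory proteins. Each symbol matched 1 of the 54146 endogenous genes in the count table, and measured values had no part in the match. The list itself was chosen with earlier results of these data known. The series holds RNA-seq of 96 samples of C2C12, a mouse myoblast cell line that fuses into myotubes in low serum, in 35 conditions of 2 or 3 samples. Myoblasts carried a doxycycline-inducible transgene and grew in 300 ng/ml doxycycline. The transgene was luciferase in control myoblasts (Luc), the water-forming NADH oxidase LbNOX (Lb), its mitochondrially targeted form mitoLbNOX (mLb), or the yeast NADH dehydrogenase NDI1. Untransduced cells were used as day 1 cells, at 24 hr in low serum, or as myotubes, which were treated after 4 days in low serum. Whether the 24 hr of day 1 cells include the 10 hr of treatment is not stated. Other day 4 myotubes had received adenovirus for GFP alone or for GFP with LbNOX, 48 hr after the switch. Treatment lasted 10 hr with DMSO, 0.5 µM of the complex I inhibitor piericidin, 0.5 µM of the complex III inhibitor antimycin or 1 µM of the ATP synthase inhibitor oligomycin, in media without pyruvate and uridine. Myotubes were also given 0.5 µM BAM15, an uncoupler, or kept in 5% oxygen from the night before, each with and without oligomycin, or oligomycin with piericidin. Some myoblasts received 20 µg/ml chloramphenicol, which blocks mitochondrial translation, or DMSO for 48 hr, with uridine in the medium. All samples came from 1 cell line. Luciferase myoblasts differed from day 1 cells in transgene and doxycycline as well as in serum, so these cannot be told apart from cell state.

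In the sarcomere, myosin thick filaments pull on actin thin filaments whose access is set by tropomyosin and the calcium-binding troponin complex. Titin and the M-line proteins hold the thick filaments in register, and the Z-disc anchors the thin filaments of neighbouring sarcomeres. Most of these proteins come in embryonic, slow and fast forms from separate genes, and cultured muscle cells switch many of these genes on together when they leave the cell cycle, under myogenic factors that bind E-boxes, MEF2 factors, TEAD factors that bind MCAT elements and serum response factor, which binds CArG boxes.

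The 250 bases before the transcription start were taken from RefSeq (GRCm38.p6), which gave a window for 35 of the 45 genes. Letters were searched on both strands, and matches may overlap. A CArG box, the serum response factor element, lay in the windows of 6 of the 35 genes (17.1%), which were Acta1, Actc1, Ldb3, Myh4, Myl3 and Myom1, against 1.62% of all 27025 genes with a window. A MEF2 site lay in 6 (17.1% against 3.42%), and the MCAT element CATTCC in 12 (34.3% against 14.4%). The E-box CANNTG was common everywhere, in 28 of 35 (80.0%) and in 69.3% of all genes, and TATAAA was found in 8 (22.9% against 14.3%). The ATF4 core TGATGNAA was found in 1, the window of Tnnt1 (2.86% against 3.91%). These are matches of letters and not binding sites. All 6 genes with a CArG box were called higher (edgeR, adjusted p under 0.05) in myotubes with piericidin, with antimycin and with BAM15, where 13, 14 and 20 of the 45 sarcomere genes and 4.15%, 6.64% and 13.2% of all genes tested were. With oligomycin Acta1 and Myh4 were called higher, and Actc1 and Ldb3 lower (all genes 16.9% higher and 16.4% lower). In 5% oxygen Acta1, Actc1 and Myl3 were higher and Myh4 lower (all genes 12.3% higher and 9.78% lower). The genes of the 6 not named for a treatment were not called. With piericidin, 4 of the 6 were called higher in GFP myotubes, 6 in LbNOX myotubes and 3 of the 5 tested in day 1 cells. In the same order, 9 of 45, 13 of 45 and 4 of 41 sarcomere genes and 1.37%, 3.24% and 1.39% of all genes were. Of the 6 genes with a MEF2 site, 1, 4 and 4 were higher in myotubes with piericidin, antimycin and BAM15, and of the 12 with the MCAT element 6, 5 and 6. These pairings were seen after both were known and are given as a description. The windows of the 4 of them above 100 CPM in untreated myotubes are shown for that reason. They read 5′ to 3′ on the gene's strand, with every matched motif in capitals. Acta1 encodes skeletal actin (chr8:123894776-123895025, minus strand), Actc1 cardiac actin (chr2:114052876-114053125, minus strand), Ldb3 the Z-disc protein ZASP (chr14:34588682-34588931, minus strand) and Myh4 the fast IIb myosin heavy chain (chr11:67237562-67237811, plus strand).
Acta1: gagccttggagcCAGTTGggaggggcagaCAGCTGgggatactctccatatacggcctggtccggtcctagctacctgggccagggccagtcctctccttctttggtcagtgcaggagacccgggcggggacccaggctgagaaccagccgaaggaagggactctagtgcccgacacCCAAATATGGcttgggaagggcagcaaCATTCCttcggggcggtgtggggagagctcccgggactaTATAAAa
Actc1: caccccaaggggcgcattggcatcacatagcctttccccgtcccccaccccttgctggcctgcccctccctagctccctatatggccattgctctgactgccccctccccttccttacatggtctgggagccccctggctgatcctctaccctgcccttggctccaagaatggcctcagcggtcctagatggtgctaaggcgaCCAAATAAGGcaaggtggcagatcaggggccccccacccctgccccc
Ldb3: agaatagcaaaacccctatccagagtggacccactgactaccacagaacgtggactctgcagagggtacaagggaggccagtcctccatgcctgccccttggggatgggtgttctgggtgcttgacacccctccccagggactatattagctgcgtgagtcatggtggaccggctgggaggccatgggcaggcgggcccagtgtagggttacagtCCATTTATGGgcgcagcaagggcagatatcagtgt
Myh4: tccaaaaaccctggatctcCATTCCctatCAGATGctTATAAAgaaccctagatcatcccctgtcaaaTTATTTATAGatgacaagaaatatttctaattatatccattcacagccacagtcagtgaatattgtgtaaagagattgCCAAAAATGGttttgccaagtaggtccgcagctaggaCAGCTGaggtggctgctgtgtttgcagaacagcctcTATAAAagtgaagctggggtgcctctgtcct

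Libraries held 6458295 to 15366745 counts, with a median of 10336588.5. Levels below are library-scaled counts (CPM, TMM-scaled), read for single samples and given as mean ± SD where averaged, and levels of different genes are compared only per kilobase of transcript. Libraries were not strand-specific, and 11 of the 45 genes shared over 10% of their 31-base words with another gene, so their counts are uncertain. These were Myh1, Myh2, Myh3, Myh4, Myh7, Myh8, Myl1, Tpm3, Mybph, Tmod1 and Tnnc2, of which Tnnc2 shared the most (59.04%, with Ube2c on the other strand) and Myh1, among fast and perinatal myosins, shared 42.9%. Marker genes followed the labelled states. Summed CPM of 8 muscle differentiation markers other than sarcomere genes was 163 to 183 in untreated luciferase myoblasts, 3338 to 3502 in day 1 cells and 3963 to 4025 in myotubes, while 8 proliferation markers fell from 1774 to 1817 to 294 to 324 and 168 to 215. Markers of undifferentiated or reserve cells, 7 genes, summed to 728 to 749, 154 to 163 and 102 to 120.3 in the same order. The 5 adipocyte markers summed to 8.796 to 9.45, 4.06 to 4.09 and 1.89 to 2.46 CPM, nearly all of it Pparg, and Cidec had no count in any of these samples.

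Nearly the whole list was higher in day 1 cells than in myoblasts. Of 44 sarcomere genes tested in day 1 cells against luciferase myoblasts, 42 rose and 1 fell (edgeR quasi-likelihood F test with Benjamini-Hochberg adjustment, adjusted p under 0.05, used throughout), where 31.4% of all 12656 genes tested rose and 32.2% fell. The median log2 fold change was 8.52 over the sarcomere genes (8.42 with 7 of the 8 genes that had no count in myoblasts set to their lower bound and Myot, with 1 count in day 1 cells, left as fitted) and 0.0 over all genes. In untreated luciferase myoblasts 8 of the 45 genes had no count at all, 7 had 1 to 3 counts over the 3 samples, and 15 reached a mean of 1 CPM. Among myoblasts alone 14 of the 45 genes could be tested. The others tested here entered only through day 1 cells or myotubes, so a rise was nearly set in advance for them. Myl3, which entered only through myotubes, was called higher on 0 counts in myoblasts and 5 in day 1 cells. That is at least 1.71-fold higher when myoblasts are set at 3 counts over the group. In day 1 cells 42 genes reached 1 CPM, 27 reached 100 CPM and 11 reached 1000 CPM, and in myotubes these numbers were 45, 32 and 14. The 45 genes together took 0.227% ± 0.00642 of all counts in myoblasts (SD, n = 3), 3.04% ± 0.0476 in day 1 cells and 3.96% ± 0.156 in myotubes. In such bulk samples, fewer cells of a type and less RNA per cell cannot be told apart. All luciferase myoblast and day 1 DMSO samples sat in outer wells of the plate and all myotube DMSO samples in inner wells. With well position as a covariate, its effect estimated from conditions with samples in both kinds of well, 42 genes were called higher and 1 lower in day 1 cells. In myotubes against day 1 cells, 33 were then higher and 1 lower.

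**Figure D1:**
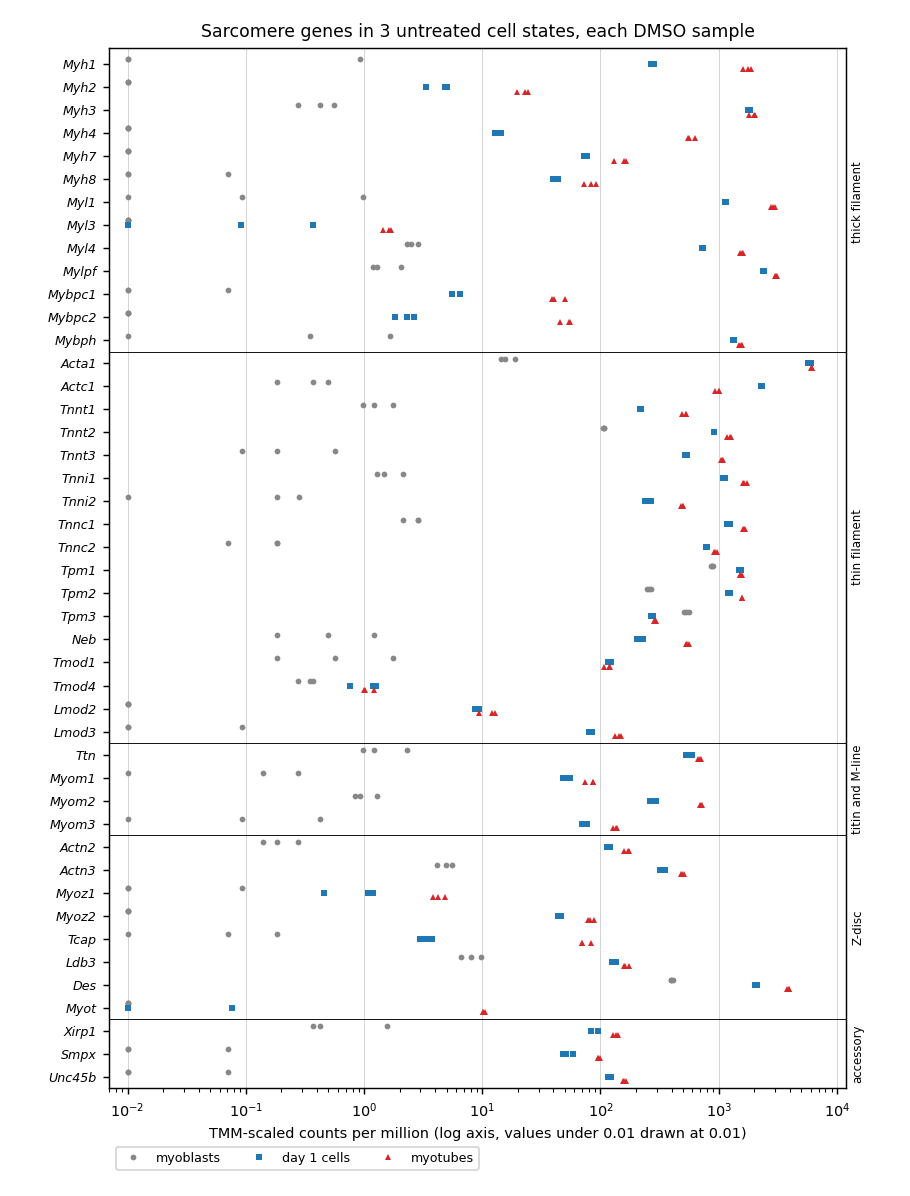
Level of each of the 45 sarcomere genes in the untreated (DMSO) samples of 3 cell states, in TMM-scaled CPM on a log axis, with 1 point per sample (3 per state) and values under 0.01 drawn at 0.01. Genes are grouped by part of the sarcomere. Nearly all genes move from the left in luciferase myoblasts to the right in day 1 cells, and Tpm1, Tpm2, Tpm3, Des and Tnnt2 are the genes at 100 CPM or more in every state.

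Rises were large in every part of the sarcomere. Among thick filament genes, Myh3, the embryonic myosin heavy chain, went from 0.278, 0.423 and 0.555 CPM in the 3 myoblast samples to 1776, 1805 and 1855 in day 1 cells (log2 fold change 12.05 ± 0.12, adjusted p = 1.35e-27; ± gives the SE of a log2 fold change). The slow and cardiac myosin Myh7 had no count in myoblasts and 72.05, 74.3 and 77.5 CPM in day 1 cells, which is at least 888-fold higher when myoblasts are set at 3 counts over the group. Myl1, the fast essential light chain, rose from 0, 0.0926 and 0.987 to 1124, 1126 and 1158 CPM (log2 fold change 11.38 ± 0.20, adjusted p = 5.30e-24). All 3 genes had day 1 samples far above every myoblast sample. On the thin filament, cardiac actin Actc1 rose from 0.185, 0.371 and 0.493 to 2267, 2269 and 2341 CPM (log2 fold change 12.59 ± 0.11, adjusted p = 2.26e-30). Fast troponin C Tnnc2 went from 0.0705, 0.185 and 0.185 to 781, 785 and 791 (log2 fold change 12.34 ± 0.10, adjusted p = 5.14e-31). For the leiomodin Lmod3, which nucleates actin, 1 count in myoblasts against 80.8, 83.5 and 84.6 CPM in day 1 cells gave a ratio of 2969.6 with a 95% counting interval of 533 to 117293. In the Z-disc, the calsarcin Myoz2 went from no count to 43.4, 45.9 and 46.2 CPM, at least 537-fold higher. The myosin chaperone Unc45b went from 1 count to 116, 120.4 and 122 CPM, a ratio of 4289 with an interval of 769.7 to 169388. Counting intervals and floors cover counting error only.

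A few genes were already well expressed in myoblasts. Counts were summed over all transcripts of a gene, so sarcomeric and other forms of the tropomyosins below cannot be told apart. Per kilobase, the highest in luciferase myoblasts were the tropomyosins Tpm1 at 464 ± 9.41 CPM per kb and Tpm3 at 239 ± 9.68, followed by the intermediate filament protein desmin (Des) at 132 ± 2.83, and Tpm2 at 123 ± 5.51. Tpm3, gamma tropomyosin, was the 1 gene of the list that fell, from 513, 533 and 556 CPM in myoblasts to 269.7, 271 and 278 in day 1 cells (log2 fold change -0.96 ± 0.047, adjusted p = 3.53e-15). Myot, the Z-disc protein myotilin, was the 1 tested gene that passed in neither direction, with 0, 0 and 0.0769 CPM in day 1 cells, and Tmod4 was too low to be tested in this model. In day 1 cells the highest levels per kilobase were skeletal actin Acta1 at 4077 ± 129 CPM per kb and the fast regulatory light chain Mylpf at 3115 ± 26.5. In myotubes Acta1 at 4212 ± 53.7 and Mylpf at 4018 ± 79.3 led again, followed by Myl1 at 3591 ± 109, and the lowest were Tmod4 at 0.859 ± 0.1004 and the slow light chain Myl3 at 1.69 ± 0.143.

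From day 1 to day 4 the list rose further, most of all Myh4, Mybpc2 and Tcap among genes with over 3 counts in day 1 cells. Myot, Myl3 and Myoz1 entered the test only through myotubes, so their rise was nearly set in advance. 36 of 44 genes rose and 1 fell (all genes 18.4% and 16.9%), with a median log2 fold change of 0.84 (all genes -0.015). Every Z-disc gene, accessory gene and titin or M-line gene tested rose, and so did 11 of 13 thick filament genes and 10 of 16 thin filament genes. The fast IIb myosin Myh4 rose from 12.9, 13.9 and 14.3 to 552, 556 and 625 CPM (log2 fold change 5.41 ± 0.11, adjusted p = 1.46e-18), and the fast IIx myosin Myh1 from 266, 284 and 285 to 1614, 1765 and 1884 (log2 fold change 2.67 ± 0.13, adjusted p = 1.40e-13). The IIa myosin Myh2 rose from 3.37, 4.80 and 4.998 to 19.7, 23.1 and 24.2 CPM (log2 fold change 2.36 ± 0.25, adjusted p = 4.57e-07). Day 1 and myotube samples did not overlap for any of these fast adult myosins. Myosin binding protein C rose in its fast form, Mybpc2, from 1.85, 2.31 and 2.64 to 45.3, 54.2 and 55.6 CPM (log2 fold change 4.52 ± 0.13, adjusted p = 4.33e-15) and in its slow form, Mybpc1, from 5.54, 6.54 and 6.55 to 39.02, 40.8 and 49.9 (log2 fold change 2.81 ± 0.14, adjusted p = 1.51e-12). Telethonin (Tcap), which caps titin at the Z-disc, rose from 2.999, 3.32 and 3.73 to 69.2, 69.98 and 83.4 CPM (log2 fold change 4.49 ± 0.15, adjusted p = 7.22e-16). Myotilin (Myot) went from 1 count over 3 day 1 samples to 10.1, 10.1 and 10.5 CPM, a ratio of 356 with a 95% counting interval of 63.9 to 14054. Myl3, the slow and ventricular light chain, stayed low, with 0, 0.0910 and 0.369 CPM in day 1 cells and 1.44, 1.62 and 1.698 in myotubes (log2 fold change 3.37 ± 0.60, adjusted p = 0.000169). The 1 gene that fell was Actc1, from 2267, 2269 and 2341 to 936, 996 and 999 CPM (log2 fold change -1.21 ± 0.055, adjusted p = 1.39e-14). Embryonic Myh3 (1776, 1805 and 1855 against 1802, 1974 and 2033 CPM, log2 fold change 0.11 ± 0.058, adjusted p = 0.142) and Acta1 (log2 fold change 0.064 ± 0.064, adjusted p = 0.474) did not pass the test.

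Within families, the make-up of the transcripts, as a share of the family's counts per kilobase, shifted between day 1 and day 4, most for myosin heavy chain, myosin binding protein C and actin. Among the 6 myosin heavy chain genes, Myh3 held 81.6% ± 0.139 in day 1 cells (SD, n = 3) and 43.0% ± 0.541 in myotubes, while Myh1 went from 12.4% ± 0.293 to 38.6% ± 0.346 and Myh4 from 0.6201% ± 0.0434 to 12.9% ± 0.594. Slow Myh7 held 3.25% ± 0.0919 and 3.24% ± 0.205, perinatal Myh8 1.85% ± 0.0895 and 1.795% ± 0.156, and Myh2 under 1% of the family in both. Acta1 went from 72.4% ± 0.433 of the 2 alpha actins to 86.4% ± 0.283, with Actc1 making up the rest. Cardiac Tnnt2 went from 50.8% ± 0.2505 of troponin T to 39.5% ± 0.378, slow Tnnt1 from 14.04% ± 0.2299 to 19.4% ± 0.318 and fast Tnnt3 from 35.2% ± 0.441 to 41.1% ± 0.669. Slow Tnni1 held 74.5% ± 0.751 and 68.99% ± 0.507 of the 2 skeletal troponin I genes, with Tnni2 the rest. Slow and cardiac Tnnc1 held 60.1% ± 0.555 and 62.9% ± 1.12 of troponin C, subject to the overlap of Tnnc2 with Ube2c. Of myosin binding protein C, Mybpc2 went from 28.2% ± 1.98 to 56.5% ± 2.89. Embryonic Myl4 held 35.4% ± 0.721 and 31.5% ± 0.166 of the essential light chains with Myl1 at 64.6% ± 0.729 and 68.4% ± 0.164. Fast Actn3 held 74.5% ± 1.08 and 75.4% ± 0.8696 of the 2 alpha actinins, and Myoz2 held 98.2% ± 0.736 and 95.5% ± 0.497 of the 2 calsarcins.

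Other genes of the same structures were counted for comparison. Their counts stand against 31.4% of all genes higher and 32.2% lower in day 1 cells, then 18.4% and 16.9% in myotubes. Of 38 other sarcomere-associated genes, 35 were tested across states, and 32 rose and 2 fell from myoblasts to day 1 cells, then 23 rose and 4 fell from day 1 to day 4. The 16 non-muscle contractile and cytoskeletal genes went the other way, with 3 higher and 11 lower in day 1 cells and 14 lower in myotubes. Of 13 myogenic and myogenic cofactor genes, 9 rose and 2 fell, then 6 rose and 4 fell.

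In myotubes, the inhibitors split the list, and they did not split it alike. All comparisons are of 3 samples against the same 3 DMSO samples, so these DMSO samples are shared between them. Of 45 sarcomere genes, with piericidin, 13 rose and 12 fell (all genes 4.15% and 4.84%), median log2 fold change 0.0031 (all genes 0.0069). With antimycin, 14 rose and 14 fell (all genes 6.64% and 6.27%), median log2 fold change 0.083 (all genes 0.011), a split that became 15 and 7 when libraries were scaled by total counts alone. With BAM15, 20 rose and 6 fell (all genes 13.2% and 12.2%), median log2 fold change 0.083 (all genes 0.023). With 5% oxygen, 22 rose and 8 fell (all genes 12.3% and 9.78%), median log2 fold change 0.15 (all genes 0.023), or 16 and 11 with total counts. Oligomycin gave the opposite balance, as 8 rose and 20 fell (all genes 16.9% and 16.4%), median log2 fold change -0.11 (all genes -0.0058). Under oligomycin 5 of 8 Z-disc genes fell, 2 of 17 thin filament genes rose and 8 fell, 3 of 13 thick filament genes rose and 5 fell, and 2 of 4 titin and M-line genes rose. With BAM15, 7 thick filament genes rose and 2 fell, 5 thin filament genes rose and 1 fell, and 4 Z-disc genes rose and 2 fell. The 6 stress genes Atf3, Ddit3, Gdf15, Trib3, Asns and Chac1, used as a check of treatment, summed to 159 to 167 CPM with DMSO and 1222 to 1249.6 with oligomycin. The 8 muscle differentiation markers moved with the list under oligomycin (2 higher, 5 lower, summed CPM 3339 to 3464), and their part in the result was not tested. Proliferation markers summed to 172 to 193 CPM with oligomycin, with log2 fold changes of -0.40 to 0.093, and in 5% oxygen all 8 fell, to a sum of 27.96 to 33.2. Their part in the result was not tested.

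**Figure D2:**
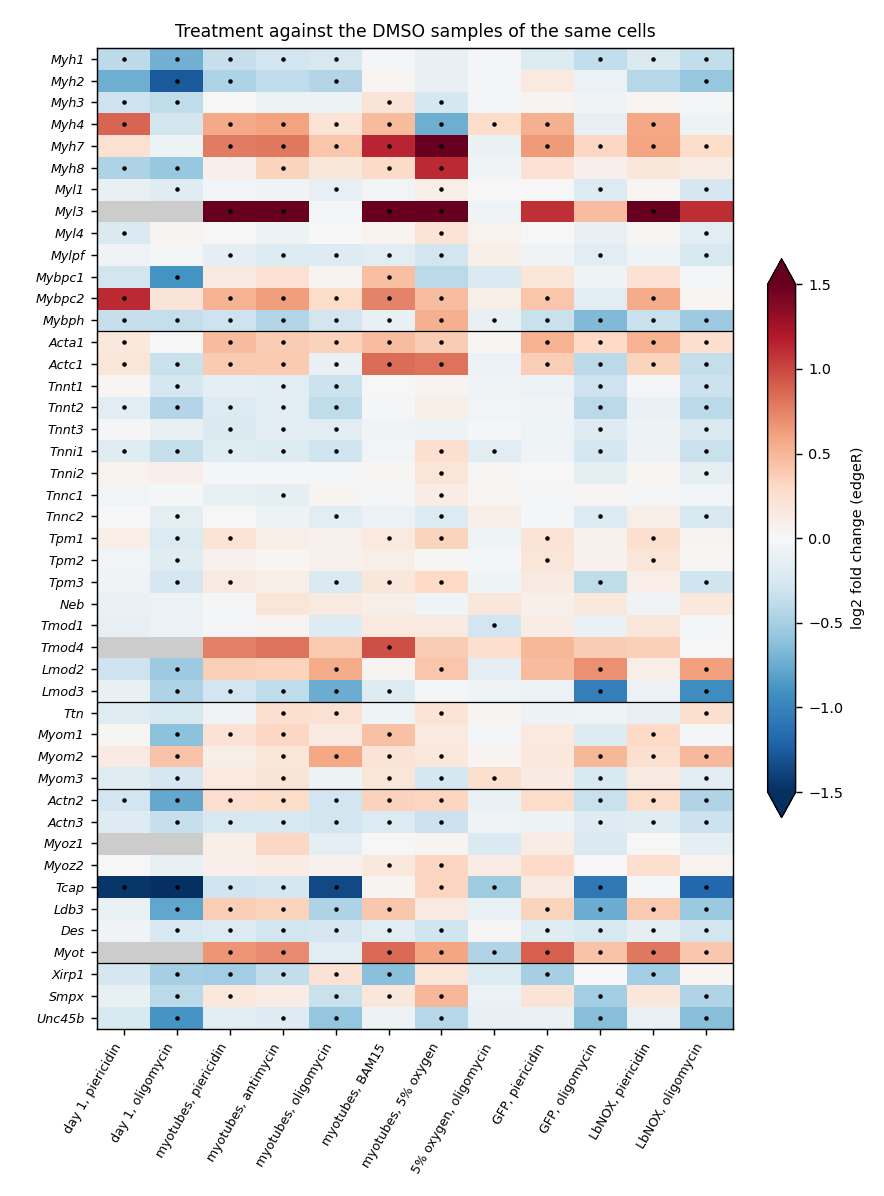
Log2 fold change (edgeR) of each sarcomere gene with each treatment of day 1 cells and myotubes against the DMSO samples of the same cells (myoblasts are not drawn), with the column for oligomycin in 5% oxygen set against DMSO in 5% oxygen. Red is higher, blue is lower, colours stop at 1.5 in either direction, dots mark adjusted p under 0.05, grey cells were not tested, and horizontal lines separate thick filament, thin filament, titin and M-line, Z-disc and accessory genes. Tcap, Lmod3, Ldb3 and Unc45b are blue in the 4 columns of oligomycin in normal oxygen, and Myh7 is red in every myotube column but that of oligomycin in 5% oxygen.

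Thick filament genes moved in both directions, and among the heavy chains the slow myosin Myh7 had the largest log2 change with piericidin, antimycin, BAM15 and 5% oxygen. With oligomycin that was Myh2. Myh7 stood at 129.7, 159 and 164 CPM in the 3 DMSO samples. It reached 246, 255 and 272 with piericidin (log2 fold change 0.77 ± 0.087, adjusted p = 1.16e-06), 239, 260.5 and 278 with antimycin (0.79 ± 0.087, adjusted p = 4.99e-07) and 303, 326 and 362 with BAM15 (1.14 ± 0.087, adjusted p = 4.15e-10). With oligomycin it reached 193, 198 and 215 CPM (log2 fold change 0.42 ± 0.087, adjusted p = 0.000525), and in 5% oxygen 506, 511 and 582 (log2 fold change 1.82 ± 0.088, adjusted p = 4.95e-14). Every treated sample lay above the DMSO samples, and the 5% oxygen samples lay above all others. Fast IIb Myh4 rose with piericidin, antimycin and BAM15 and fell in 5% oxygen, where embryonic Myh3 fell too. Myh4 stood at 552, 556 and 625 CPM with DMSO and 344, 346 and 350.4 in 5% oxygen (log2 fold change -0.74 ± 0.070, adjusted p = 1.12e-08), but at 792, 840.1 and 931 with piericidin (log2 fold change 0.57 ± 0.069, adjusted p = 3.53e-06), 818, 884 and 903 with antimycin (0.60 ± 0.069, adjusted p = 9.33e-07) and 757, 784 and 857 with BAM15 (0.48 ± 0.069, adjusted p = 1.30e-05). Perinatal Myh8 rose with 5% oxygen, from 72.2, 83.9 and 91.4 to 169.6, 177 and 191 CPM (log2 fold change 1.12 ± 0.10, adjusted p = 4.73e-09). Fast Myh1 fell from 1614, 1765 and 1884 to 1332, 1396 and 1414 CPM with piericidin (log2 fold change -0.34 ± 0.058, adjusted p = 0.000266) and to 1398, 1427 and 1463 with antimycin (log2 fold change -0.29 ± 0.058, adjusted p = 0.00119). The low Myh2 fell from 19.7, 23.1 and 24.2 to 14.9, 15.2 and 18.1 with piericidin (log2 fold change -0.46 ± 0.13, adjusted p = 0.0271) and 13.1, 17.2 and 18.6 with oligomycin (log2 fold change -0.45 ± 0.13, adjusted p = 0.00994). Both calls on Myh2 were lost when DMSO replicate 3 was left out, the first also without DMSO replicate 1 or piericidin replicate 1 or 3 and the second without oligomycin replicate 3.

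As a share of myosin heavy chain transcripts per kilobase, Myh7 went from 3.24% ± 0.205 of the family without inhibitor (SD, n = 3) to 5.54% ± 0.299 under piericidin, 5.59% ± 0.325 under antimycin, 6.22% ± 0.3799 with BAM15, 4.57% ± 0.1999 with oligomycin and 12.02% ± 0.443 in 5% oxygen. Myh4 went from 12.9% ± 0.594 to 19.03% ± 1.29, 19.4% ± 0.933, 15.6% ± 0.175, 15.5% ± 0.615 and 8.12% ± 0.292 in the same order. Myh3 stayed between 37.7% and 43.0% of the family in these 6 conditions.

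**Figure D3:**
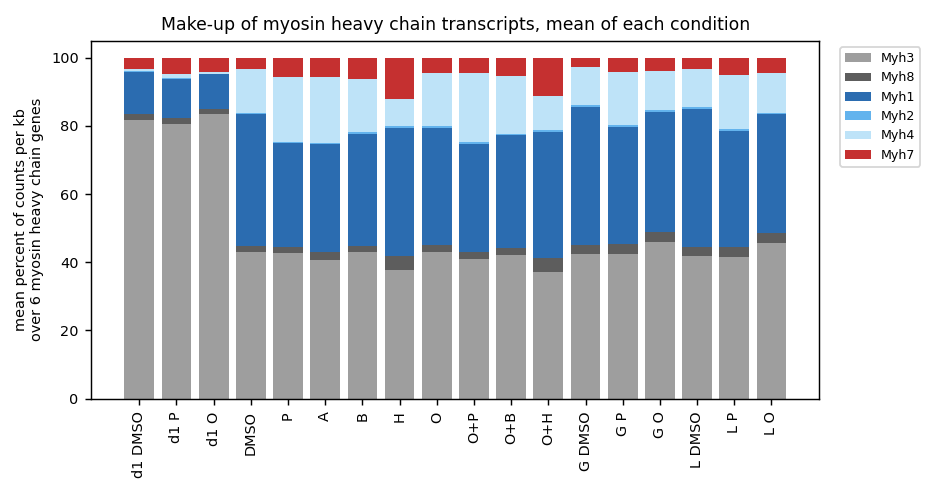
Mean share of each of 6 myosin heavy chain genes in their summed counts per kilobase, in percent, for each condition of day 1 cells (d1), untransduced myotubes, and GFP (G) or LbNOX (L) myotubes (P piericidin, A antimycin, B BAM15, H 5% oxygen, O oligomycin; n = 3, or 2 for GFP). Embryonic Myh3 fills most of the day 1 bars, and the Myh7 segment is widest in the 2 conditions in 5% oxygen.

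The myosin-binding proteins went separate ways. Fast Mybpc2 stood at 45.3, 54.2 and 55.6 CPM with DMSO, 66.4, 75.1 and 80.1 with piericidin (log2 fold change 0.52 ± 0.080, adjusted p = 7.53e-05), 77.4, 80.1 and 81.8 with antimycin (0.63 ± 0.078, adjusted p = 2.79e-06) and 81.3, 86.2 and 91.1 with BAM15 (0.74 ± 0.079, adjusted p = 1.16e-07). With oligomycin it was 60.9, 63.1 and 63.7 (log2 fold change 0.28 ± 0.079, adjusted p = 0.00848), a call lost without DMSO replicate 1. Mybph, which resembles myosin binding protein C, fell from 1498, 1555 and 1573 CPM to 1219.6, 1228 and 1269.6 with piericidin (log2 fold change -0.31 ± 0.031, adjusted p = 1.18e-07) and 1133, 1133 and 1135 with antimycin (log2 fold change -0.43 ± 0.031, adjusted p = 2.60e-10), and rose to 2179, 2231 and 2291 in 5% oxygen (log2 fold change 0.53 ± 0.031, adjusted p = 1.06e-12). Its DMSO samples thus lay between those treated with inhibitors and those in low oxygen. The regulatory light chain Mylpf fell from 3021, 3069.6 and 3142 to 2708, 2727 and 2745 CPM with BAM15 (log2 fold change -0.17 ± 0.040, adjusted p = 0.0037) and 2406, 2538 and 2619 in 5% oxygen (log2 fold change -0.29 ± 0.040, adjusted p = 6.27e-06). The slow light chain Myl3 was called higher with piericidin, antimycin, BAM15 and 5% oxygen but never exceeded 8.96 CPM.

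On the thin filament, both alpha actins rose with piericidin, antimycin, BAM15 and 5% oxygen. Acta1 stood at 6002, 6124 and 6146 CPM with DMSO, 8363, 8438 and 8551 with piericidin (log2 fold change 0.48 ± 0.022, adjusted p = 1.81e-13) and 7651, 7769 and 7805 with oligomycin (log2 fold change 0.35 ± 0.022, adjusted p = 4.52e-12). Actc1 stood at 936, 996 and 999 CPM with DMSO, 1238, 1274 and 1303 with antimycin (log2 fold change 0.39 ± 0.035, adjusted p = 1.48e-08), 1684, 1722 and 1796 with BAM15 (0.84 ± 0.035, adjusted p = 7.01e-15) and 1708, 1709.7 and 1720.0 in 5% oxygen (0.81 ± 0.035, adjusted p = 4.17e-15). With oligomycin Actc1 was 894, 907 and 910.3 CPM and fell by 0.11 on the log2 scale (adjusted p = 0.0172), so the actins moved in opposite directions with oligomycin. The leiomodins, which nucleate actin filaments, also parted under oligomycin. Lmod2 rose from 9.45, 12.2 and 12.9 to 16.6, 17.1 and 17.2 CPM (log2 fold change 0.56 ± 0.12, adjusted p = 0.000647), while Lmod3 fell from 133, 143 and 148 to 79.3, 80.97 and 91.98 (log2 fold change -0.75 ± 0.062, adjusted p = 7.93e-10). Lmod3 also fell with antimycin, to 104, 109 and 113 (log2 fold change -0.38 ± 0.061, adjusted p = 0.000119), and with BAM15, to 119, 121 and 129 (log2 fold change -0.19 ± 0.061, adjusted p = 0.0216), and the last call was lost on leaving out either of 2 DMSO or 2 BAM15 samples. Of the troponins, Tnnt1, Tnnt2, Tnnt3, Tnni1 and Tnnc2 fell with oligomycin by 0.17 to 0.38 on the log2 scale, and Tnni2 (log2 fold change -0.033 ± 0.039, adjusted p = 0.555) and Tnnc1 (0.043 ± 0.037, adjusted p = 0.397) did not pass. The tropomyosins Tpm1 and Tpm3 rose by 0.14 to 0.34 with piericidin, BAM15 and 5% oxygen, and Tpm3 fell with oligomycin (log2 fold change -0.22 ± 0.041, adjusted p = 0.000181).

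In the M-line and along titin, oligomycin raised Myom2, a myomesin that crosslinks thick filaments, from 694, 704 and 717 CPM with DMSO to 1037, 1056 and 1057 (log2 fold change 0.58 ± 0.040, adjusted p = 2.96e-11). The oligomycin samples lay above those of every other untransduced myotube condition, which ran from 731 to 858 with treatment. Titin (Ttn) stood at 666, 696 and 706 CPM with DMSO and 755, 813 and 841 with oligomycin (log2 fold change 0.22 ± 0.064, adjusted p = 0.00825). With antimycin all 4 genes of this group rose, by 0.18 to 0.31 on the log2 scale.

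Among all 5 treatments of myotubes, the largest fall was that of the Z-disc gene Tcap with oligomycin. Tcap stood at 69.2, 69.98 and 83.4 CPM with DMSO and at 27.8, 29.5 and 29.5 with oligomycin (log2 fold change -1.36 ± 0.086, adjusted p = 5.06e-12). It was 56.2, 58.98 and 66.2 with piericidin (log2 fold change -0.30 ± 0.083, adjusted p = 0.0239), a call lost on leaving out DMSO replicate 3 or piericidin replicate 2 or 3, and 87.1, 93.2 and 99.1 in 5% oxygen (log2 fold change 0.33 ± 0.081, adjusted p = 0.00388). Ldb3, whose product ZASP binds alpha actinin, fell with oligomycin and rose with piericidin, antimycin and BAM15. It stood at 157, 160.2 and 176 CPM with DMSO, 117, 118 and 120.2 with oligomycin (log2 fold change -0.47 ± 0.051, adjusted p = 9.59e-08), 207, 212 and 215 with piericidin (log2 fold change 0.37 ± 0.051, adjusted p = 2.16e-05) and 208, 219 and 223 with BAM15 (0.41 ± 0.051, adjusted p = 1.55e-06). Alpha actinin Actn2 showed the same signs, -0.29 ± 0.062 with oligomycin (adjusted p = 0.000868) and 0.26 ± 0.062 with piericidin (adjusted p = 0.00823). The low Myot rose from 10.1, 10.1 and 10.5 CPM to 14.9, 15.3 and 18.2 with piericidin (log2 fold change 0.67 ± 0.12, adjusted p = 0.000514), 14.6, 16.4 and 18.7 with antimycin (0.71 ± 0.12, adjusted p = 0.000125), 18.3, 18.4 and 18.4 with BAM15 (0.85 ± 0.12, adjusted p = 6.69e-06) and 13.8, 14.1 and 18.1 in 5% oxygen (0.59 ± 0.12, adjusted p = 0.000581). Fast Actn3 and desmin fell in all 5 treatments. For Actn3 the log2 fold changes ran from -0.32 in 5% oxygen (from 484, 485 and 513 to 384, 399 and 399.98 CPM, adjusted p = 0.000557) to -0.20 with BAM15 (413, 422 and 444 CPM, adjusted p = 0.0225, a call lost on leaving out DMSO replicate 3 or BAM15 replicate 1 or 3). For Des they ran from -0.30 in 5% oxygen (3780.4, 3936 and 3963 to 3103, 3147 and 3242 CPM, adjusted p = 6.79e-07) to -0.17 with BAM15 (3277, 3481 and 3548 CPM, adjusted p = 0.00105), and with antimycin Des was 3154, 3190.2 and 3263 CPM (log2 fold change -0.27 ± 0.036, adjusted p = 7.84e-06).

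The accessory genes showed 2 further patterns. Xirp1, an actin-binding protein of Xin type, stood at 129, 134 and 142 CPM with DMSO, 88.03, 90.7 and 104 with piericidin (log2 fold change -0.52 ± 0.076, adjusted p = 4.82e-05), 100.004, 104 and 106 with antimycin (-0.37 ± 0.075, adjusted p = 0.00124) and 75.7, 88.9 and 94.8 with BAM15 (-0.63 ± 0.076, adjusted p = 9.06e-07). With oligomycin it was 145, 161 and 164 (log2 fold change 0.22 ± 0.075, adjusted p = 0.0252), so the sign was the reverse of Ldb3 under each of piericidin, BAM15 and oligomycin. The chaperone Unc45b stood at 155, 159.7 and 165 CPM with DMSO, 101, 106 and 113 with oligomycin (log2 fold change -0.58 ± 0.060, adjusted p = 3.88e-08) and 109.96, 122 and 124 in 5% oxygen (log2 fold change -0.43 ± 0.060, adjusted p = 5.03e-06). Smpx, a small cytoskeletal muscle protein, stood at 95.9, 96.05 and 99.1 CPM with DMSO, 74.4, 77.8 and 78.9 with oligomycin (log2 fold change -0.33 ± 0.051, adjusted p = 1.67e-05) and 132, 135 and 143 in 5% oxygen (log2 fold change 0.49 ± 0.050, adjusted p = 4.09e-08).

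**Figure D4:**
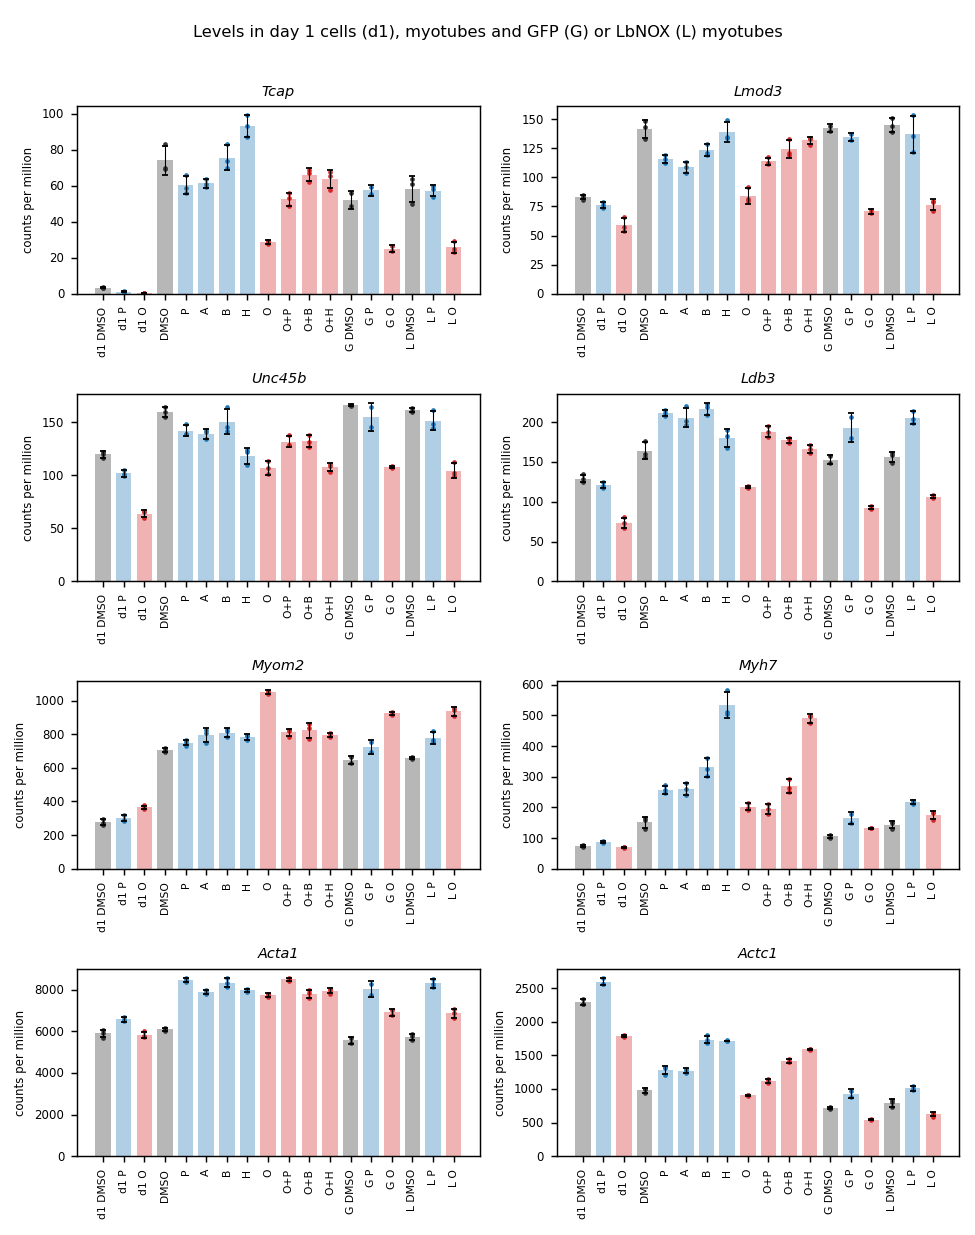
CPM of 8 sarcomere genes in day 1 cells (d1), untransduced myotubes, and GFP (G) or LbNOX (L) myotubes, with each sample as a point, bars at the mean and error bars of 1 SD (n = 3, or 2 for GFP; P piericidin, A antimycin, B BAM15, H 5% oxygen, O oligomycin). Grey bars are DMSO, red bars hold oligomycin and blue bars are other treatments. In untransduced myotubes Tcap is at 27.8 to 29.5 CPM with oligomycin alone and at 48.6 to 68.9 CPM when piericidin, BAM15 or 5% oxygen was added.

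Oligomycin was also combined with piericidin, BAM15 or 5% oxygen. Each combination was compared with oligomycin alone. A difference therefore holds the effect of the added condition itself. Whether the response to oligomycin changed was not tested. Against oligomycin alone, with piericidin, 15 rose and 5 fell (all genes 8.46% and 12.4%), median log2 fold change 0.034 (all genes 0.015). With BAM15, 22 rose and 4 fell (all genes 12% and 14.1%), median log2 fold change 0.16 (all genes 0.012), and in 5% oxygen, 21 rose and 6 fell (all genes 16.7% and 16.5%), median log2 fold change 0.21 (all genes 0.018). The 3 comparisons share the oligomycin samples. Tcap was 27.8, 29.5 and 29.5 CPM with oligomycin alone, 48.6, 53.02 and 55.99 with piericidin added (log2 fold change 0.85 ± 0.087, adjusted p = 5.53e-08), 62.2, 67.3 and 68.9 with BAM15 added (1.19 ± 0.086, adjusted p = 8.28e-11) and 57.8, 65.6 and 67.5 in 5% oxygen (1.15 ± 0.087, adjusted p = 1.28e-10). Each combined sample lay above each sample with oligomycin alone. Lmod3 went from 79.3, 80.97 and 91.98 CPM to 112, 112 and 117 (log2 fold change 0.43 ± 0.062, adjusted p = 1.24e-05) and 119, 121 and 133 with BAM15 (0.56 ± 0.062, adjusted p = 1.64e-07). Ldb3 went from 117, 118 and 120.2 to 181, 188 and 195 with piericidin (log2 fold change 0.66 ± 0.051, adjusted p = 6.08e-10) and 174, 178 and 179.96 with BAM15 (0.58 ± 0.051, adjusted p = 3.33e-09). In the other direction, Myom2 came down from 1037, 1056 and 1057 CPM to 785, 822 and 826 with piericidin (log2 fold change -0.38 ± 0.040, adjusted p = 1.21e-07), 770.4, 838 and 858 with BAM15 (-0.36 ± 0.040, adjusted p = 2.08e-07) and 785, 798 and 804 in 5% oxygen (-0.39 ± 0.040, adjusted p = 3.73e-08).

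Several other genes differed between the combinations and oligomycin alone. Given without oligomycin, piericidin gave a log2 fold change of -0.52 ± 0.076 for Xirp1 and BAM15 gave 0.84 ± 0.035 for Actc1, the same directions as against oligomycin. Xirp1 fell from 145, 161 and 164 CPM with oligomycin to 76.1, 85.1 and 87.7 with piericidin (log2 fold change -0.92 ± 0.076, adjusted p = 1.62e-09) and 77.9, 82.2 and 88.7 with BAM15 (-0.92 ± 0.076, adjusted p = 9.29e-10). Actc1 rose from 894, 907 and 910.3 to 1396, 1408 and 1442 CPM with BAM15 (log2 fold change 0.64 ± 0.035, adjusted p = 2.84e-13) and 1585, 1587 and 1601 in 5% oxygen (0.83 ± 0.035, adjusted p = 1.56e-15). Myot rose from 8.18, 9.34 and 9.57 to 13.3, 13.5 and 14.8 with piericidin (log2 fold change 0.61 ± 0.12, adjusted p = 0.000498) and 13.5, 13.7 and 14.2 with BAM15 (0.61 ± 0.12, adjusted p = 0.000395). Myh4 went from 593, 671 and 722 to 866, 878 and 912 with piericidin (log2 fold change 0.41 ± 0.069, adjusted p = 7.79e-05). Titin fell from 755, 813 and 841 to 539.7, 579 and 695 CPM with piericidin (log2 fold change -0.41 ± 0.064, adjusted p = 2.80e-05) and 679.5, 679.9 and 690.4 with BAM15 (-0.24 ± 0.064, adjusted p = 0.00689). Nebulin (Neb), the ruler of the thin filament, went from 558, 599 and 628 to 436, 449 and 514 with piericidin (log2 fold change -0.36 ± 0.066, adjusted p = 0.00028). Lmod2 fell from 16.6, 17.1 and 17.2 to 9.31, 10.7 and 11.7 CPM with piericidin (log2 fold change -0.69 ± 0.12, adjusted p = 0.000124), and with BAM15 it was 12.9, 13.2 and 14.8 (log2 fold change -0.32 ± 0.12, adjusted p = 0.0474), a call lost with DESeq2, with no filter on low counts and on leaving out any of 5 single samples.

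Myosin genes differed between oligomycin in 5% oxygen and oligomycin alone. By itself, 5% oxygen moved Myh7, Myh8 and Myh4 in the same directions (1.82 ± 0.088, 1.12 ± 0.10 and -0.74 ± 0.070 on the log2 scale). Against oligomycin alone, Myh7 went from 193, 198 and 215 to 474, 497 and 499 CPM (log2 fold change 1.29 ± 0.087, adjusted p = 1.58e-11). Myh8 went from 81.6, 93.2 and 104 to 167, 169 and 176 (0.89 ± 0.10, adjusted p = 1.37e-07). Smpx went from 74.4, 77.8 and 78.9 to 127, 128 and 128 (0.74 ± 0.051, adjusted p = 2.40e-11). Lower were Myh4, from 593, 671 and 722 to 403, 415 and 428 CPM (log2 fold change -0.66 ± 0.069, adjusted p = 4.36e-08), Mybpc1, from 41.4, 45.3 and 46.2 to 21.8, 29.3 and 32.7 (-0.65 ± 0.15, adjusted p = 0.00187), Myh3, from 1751, 1819 and 1935 to 1536, 1553 and 1609.7 (-0.21 ± 0.051, adjusted p = 0.00184), and Xirp1, from 145, 161 and 164 to 125, 129 and 139.5 (-0.25 ± 0.075, adjusted p = 0.0131), a call lost without replicate 3 of the combination. Against DMSO in 5% oxygen, oligomycin in 5% oxygen changed few sarcomere genes, as 2 rose and 5 fell (all genes 2.04% and 2.22%), median log2 fold change -0.041 (all genes 0.0024). Tcap fell from 87.1, 93.2 and 99.1 to 57.8, 65.6 and 67.5 CPM (log2 fold change -0.53 ± 0.082, adjusted p = 0.000146) and slow troponin I Tnni1 from 1885, 1973 and 2015 to 1694, 1729 and 1754 (-0.17 ± 0.033, adjusted p = 0.00311, lost when scaled by total counts). The other 5 calls were each lost on leaving out 1 or more single samples. They were Myh4 (344, 346 and 350.4 against 403, 415 and 428 CPM, log2 fold change 0.28 ± 0.070, adjusted p = 0.0194), Myom3 (109, 111 and 115 against 127, 130.2 and 134, 0.24 ± 0.063, adjusted p = 0.0257), Myot (13.8, 14.1 and 18.1 against 9.83, 11.2 and 12.02, -0.46 ± 0.12, adjusted p = 0.0254), the thin filament cap Tmod1 (120.3, 121 and 138 against 98.7, 102 and 108, -0.28 ± 0.074, adjusted p = 0.0267) and Mybph (2179, 2231 and 2291 against 2044, 2046 and 2059, -0.11 ± 0.030, adjusted p = 0.044).

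The response of sarcomere genes to oligomycin was measured again in separate samples, GFP myotubes (n = 2 per treatment) and LbNOX myotubes (n = 3). In GFP myotubes, 5 rose and 20 fell (all genes 13.8% and 12.1%), median log2 fold change -0.17 (all genes -0.0098), and in LbNOX myotubes, 6 rose and 23 fell (all genes 16.6% and 15.4%), median log2 fold change -0.14 (all genes -0.024). Of 20 genes lower in untransduced myotubes and 20 lower in GFP myotubes, 19 were shared (95% of each list), and of 8 and 5 higher genes, 4 were shared, Acta1, Lmod2, Myh7 and Myom2. LbNOX myotubes shared 20 of the 20 and 23 lower genes (100% and 86.96%), with none called in the opposite direction. The overlap of calls over all genes was not counted, so the shared counts here and below cannot be set against it. Tcap fell from 48.6 and 55.8 to 23.6 and 26.5 CPM in GFP myotubes (log2 fold change -1.07 ± 0.13, adjusted p = 2.50e-05) and from 49.9, 60.8 and 63.5 to 23.2, 25.1 and 29.3 in LbNOX myotubes (-1.18 ± 0.11, adjusted p = 7.30e-07). Lmod3 fell from 140.0 and 144 to 69.2 and 72.2 (log2 fold change -1.02 ± 0.091, adjusted p = 1.23e-06) and from 139, 144 and 151 to 70.9, 78.9 and 79.9 (-0.93 ± 0.074, adjusted p = 2.06e-07). Unc45b fell from 165 and 167 to 107 and 109 (log2 fold change -0.64 ± 0.072, adjusted p = 1.17e-05) and from 160.03, 161 and 164 to 99.4, 102 and 112 (-0.64 ± 0.059, adjusted p = 9.04e-07). These treated and DMSO samples did not overlap. Ldb3 fell from 149 and 157 to 90.9 and 94.1 (log2 fold change -0.74 ± 0.068, adjusted p = 1.63e-06) and from 149, 158 and 161 to 105, 106 and 108 (-0.56 ± 0.055, adjusted p = 1.77e-06). Mybph in GFP myotubes went from 797 and 808 to 499.6 and 524 (-0.66 ± 0.060, adjusted p = 1.57e-06). Myh2 in LbNOX myotubes fell from 18.5, 23.2 and 24.5 to 12.99, 14.5 and 17.7 CPM (log2 fold change -0.57 ± 0.13, adjusted p = 0.00406).

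Myom2, Lmod2, Acta1 and Myh7 were higher with oligomycin in the transduced myotubes as well. Myom2 went from 628 and 662 to 916 and 931 CPM with GFP (log2 fold change 0.50 ± 0.046, adjusted p = 1.74e-06) and from 655, 656 and 665 to 907, 942 and 955 with LbNOX (0.49 ± 0.038, adjusted p = 1.57e-07). Lmod2 went from 9.45 and 10.3 to 14.7 and 17.2 (log2 fold change 0.68 ± 0.17, adjusted p = 0.00699, lost without GFP DMSO replicate 1 or oligomycin replicate 2) and from 10.05, 10.6 and 11.7 to 14.98, 15.3 and 19.4 (0.61 ± 0.13, adjusted p = 0.00264). Acta1 went from 5421 and 5692 to 6784 and 7032 (log2 fold change 0.30 ± 0.036, adjusted p = 2.30e-05) and from 5562, 5758 and 5856 to 6648, 6873 and 7064 (0.25 ± 0.030, adjusted p = 1.41e-05). Myh7 went from 102 and 109.6 to 132 and 134 (log2 fold change 0.31 ± 0.091, adjusted p = 0.0196) and from 129.9, 149 and 151 to 159, 180.1 and 184 (0.27 ± 0.073, adjusted p = 0.0112). Myot, not called with oligomycin in untransduced myotubes, went from 12.7 and 14.2 to 16.9 and 19.7 (log2 fold change 0.43 ± 0.14, adjusted p = 0.0387) and from 14.7, 15.3 and 15.4 to 19.6, 19.98 and 21.2 (0.41 ± 0.12, adjusted p = 0.014). Each of these 4 calls on Myh7 and Myot was lost on leaving out 1 or more single samples.

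No sarcomere gene passed the test for LbNOX itself, although a larger share of them than of all genes had an unadjusted p under 0.05. Against GFP myotubes, 0 sarcomere genes were higher and 0 lower in LbNOX myotubes (edgeR, all genes 0.0161% and 0.00807%), with 9 of 45 at an unadjusted p under 0.05 and 2 called by DESeq2. Of all 12397 genes, 748 had such an unadjusted p. Of the 9 sarcomere genes, 8 were higher in LbNOX myotubes. The gene with the lowest p was Myh7, at 102 and 109.6 CPM in GFP and 129.9, 149 and 151 in LbNOX myotubes with DMSO (log2 fold change 0.44 ± 0.084, adjusted p = 0.218), and DESeq2 called it. The difference between the oligomycin responses of LbNOX and GFP myotubes was called for 0 genes in either direction (edgeR, all genes 0% and 0%), with 3 of 45 and 525 of all 12397 genes at an unadjusted p under 0.05 and 0 called by DESeq2, and the lowest p belonged to Ttn (log2 fold change 0.30 ± 0.13, adjusted p = 0.973). Over the 45 genes this difference ran from -0.49 to 0.64 on the log2 scale.

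Piericidin in transduced myotubes moved mostly genes that it moved in untransduced ones. In GFP myotubes, 9 rose and 3 fell (all genes 1.37% and 1.72%), median log2 fold change 0.12 (all genes 0.00100), or 4 and 3 with libraries scaled by total counts. When the 4 samples compared were fitted alone, 1 sarcomere gene was called in place of 12, Acta1. In LbNOX myotubes, 13 rose and 5 fell (all genes 3.24% and 3.54%), median log2 fold change 0.090 (all genes -0.0048). Of 13 genes higher in untransduced and 9 in GFP myotubes, 8 were shared (61.5% and 88.9%), and of 12 and 3 lower genes 3 were shared, Des, Mybph and Xirp1. Acta1 rose from 5421 and 5692 to 7758 and 8281 CPM with GFP (log2 fold change 0.53 ± 0.036, adjusted p = 2.31e-06) and from 5562, 5758 and 5856 to 8108, 8277 and 8499 with LbNOX (0.53 ± 0.030, adjusted p = 9.91e-08). Myot rose from 12.7 and 14.2 to 21.3 and 28.9 (log2 fold change 0.90 ± 0.14, adjusted p = 0.0026) and from 14.7, 15.3 and 15.4 to 24.7, 26.4 and 28.2 (0.79 ± 0.11, adjusted p = 0.000669). Myh4 rose from 419 and 433 to 559 and 675 (log2 fold change 0.53 ± 0.065, adjusted p = 0.000311) and from 443, 459.6 and 469 to 647, 697 and 712 (0.58 ± 0.053, adjusted p = 1.02e-05). Treated samples lay above DMSO samples for all 3 genes. Myh7 rose from 102 and 109.6 to 150.4 and 179 (log2 fold change 0.64 ± 0.091, adjusted p = 0.00108) and from 129.9, 149 and 151 to 209, 221 and 222 (0.59 ± 0.073, adjusted p = 0.000179). Mybpc2 went from 94.4 and 104 to 122 and 142 (0.41 ± 0.098, adjusted p = 0.0339, lost on leaving out 3 of the 4 samples in turn) and from 86.1, 98.7 and 106 to 136, 146 and 149.7 (0.56 ± 0.080, adjusted p = 0.000655).

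The falls were led by Xirp1, from 104 and 109 to 72.05 and 78.1 CPM with GFP (log2 fold change -0.50 ± 0.075, adjusted p = 0.00161) and from 106, 109 and 119 to 74.5, 79.02 and 81.4 with LbNOX (-0.51 ± 0.061, adjusted p = 0.00012). Mybph fell from 797 and 808 to 609.5 and 670.0 (log2 fold change -0.33 ± 0.060, adjusted p = 0.00698) and from 867, 949.6 and 952 to 701, 743 and 769 (-0.33 ± 0.049, adjusted p = 0.00085). Des went from 3785 and 3967 to 3383 and 3486 (-0.18 ± 0.032, adjusted p = 0.00611) and from 3722, 3739 and 3775 to 3337, 3339 and 3559.6 (-0.14 ± 0.026, adjusted p = 0.00373). Without GFP DMSO replicate 1 or GFP piericidin replicate 1 the calls on Mybph and Des in GFP myotubes were lost. In LbNOX myotubes Myh1 fell from 1592, 1736 and 1768 to 1436, 1459 and 1514 (log2 fold change -0.22 ± 0.045, adjusted p = 0.00885). Actn3 went from 436, 448 and 450.3 to 378, 394 and 414 (-0.18 ± 0.037, adjusted p = 0.00947, lost without piericidin replicate 2).

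In day 1 cells, oligomycin lowered most of the list and raised 1 gene. With oligomycin, 1 rose and 27 fell (all genes 10.6% and 10.1%), median log2 fold change -0.26 (all genes 0.00014), out of 41 sarcomere genes tested, and with piericidin, 4 rose and 9 fell (all genes 1.39% and 1.36%), median log2 fold change -0.11 (all genes -0.0035). The 4 genes not tested, Myl3, Myoz1, Tmod4 and Myot, were too low. Under oligomycin 5 of 6 Z-disc genes, all 3 accessory genes, 7 of 12 thick filament genes and 10 of 16 thin filament genes fell. The 8 muscle differentiation markers went the same way (7 lower, 0 higher), as did 6 of 8 proliferation markers, and their part in the result was not tested. Unc45b fell from 116, 120.4 and 122 to 59.7, 65.05 and 66.5 CPM (log2 fold change -0.88 ± 0.056, adjusted p = 7.03e-07). Ldb3 went from 125, 128 and 134 to 67.6, 73.4 and 80.2 (-0.78 ± 0.065, adjusted p = 5.92e-06). Actn2 went from 113, 121 and 121 to 64.9, 69.1 and 71.1 (-0.77 ± 0.058, adjusted p = 2.72e-06). Myh1 fell from 266, 284 and 285 to 149.6, 174 and 175 (log2 fold change -0.72 ± 0.061, adjusted p = 6.47e-06) and the low Mybpc1 from 5.54, 6.54 and 6.55 to 2.64, 3.24 and 3.97 (-0.89 ± 0.21, adjusted p = 0.0107). Tcap, too low for the naming rule and chosen after its values were seen, fell from 2.999, 3.32 and 3.73 to 0.407, 0.609 and 0.687 CPM (log2 fold change -2.51 ± 0.34, adjusted p = 0.000257). No DMSO and oligomycin samples overlapped for these genes. The gene that rose was Myom2, from 261, 274 and 295 to 357, 359 and 378 CPM (log2 fold change 0.42 ± 0.056, adjusted p = 0.000222). Of 20 genes lower with oligomycin in myotubes and 27 in day 1 cells, 18 were shared (90% and 66.7%), Myom2 was higher in both, and Lmod2 and Xirp1 were called in opposite directions.

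Piericidin in day 1 cells raised Myh4 from 12.9, 13.9 and 14.3 to 22.7, 26.2 and 26.2 CPM (log2 fold change 0.87 ± 0.11, adjusted p = 0.00159). Actc1 went from 2267, 2269 and 2341 to 2557, 2563 and 2653 (0.18 ± 0.027, adjusted p = 0.00523). Acta1 went from 5693, 5929 and 6063 to 6496, 6527 and 6701 (0.16 ± 0.028, adjusted p = 0.00996). It lowered Mybph from 1317, 1335 and 1337 to 1026, 1039 and 1049.8 (log2 fold change -0.35 ± 0.028, adjusted p = 7.70e-05). Myh3 went from 1776, 1805 and 1855 to 1367, 1483 and 1521 (-0.31 ± 0.049, adjusted p = 0.00706). Myh1 went from 266, 284 and 285 to 208, 209 and 215 (-0.40 ± 0.060, adjusted p = 0.00579). Myh8 went from 39.5, 42.2 and 44.1 to 28.7, 30.6 and 31.5 (log2 fold change -0.46 ± 0.078, adjusted p = 0.00994). Actn2 went from 113, 121 and 121 to 92.95, 94.5 and 102 (-0.29 ± 0.057, adjusted p = 0.0206). With DMSO replicate 1, 2 or 3 or piericidin replicate 1 or 3 left out, 6 to 8 genes were called in place of 13. The calls on Acta1, Myh8 and Actn2 were each lost on leaving out 1 or more single samples. All 4 genes higher in day 1 cells, the other being Mybpc2, were also higher with piericidin in myotubes. Of 9 genes lower in day 1 cells and 12 in myotubes, 5 were shared, and Actn2 was lower in day 1 cells and higher in myotubes.

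The responses of myotubes and day 1 cells were then compared directly, as an interaction. For oligomycin, 12 of 44 sarcomere genes differed, all with the higher value in myotubes (all genes 2.62% higher and 1.06% lower). With well position as a covariate 7 were called, and all day 1 samples sat in outer wells. None was called lower (edgeR), with 0 lower at an unadjusted p under 0.05 and 0 by DESeq2. Lmod2 differed by 1.12 ± 0.23 (adjusted p = 0.0101), with 8.64, 8.996 and 9.32 CPM falling to 5.29, 6.18 and 6.69 in day 1 cells and the rise in myotubes given above. Mybpc1 differed by 0.95 ± 0.21 (adjusted p = 0.0131) and Myh8 by 0.75 ± 0.15 (adjusted p = 0.00467), the latter at 39.5, 42.2 and 44.1 against 26.9, 27.2 and 29.2 CPM in day 1 cells and 72.2, 83.9 and 91.4 against 81.6, 93.2 and 104 in myotubes. Myom1, an M-line myomesin, differed by 0.76 ± 0.18 (adjusted p = 0.0184, lost without day 1 DMSO replicate 2 or myotube DMSO replicate 1), at 47.8, 50.6 and 55.03 against 30.03, 31.96 and 36.5 CPM and 74.7, 85.8 and 86.6 against 82.7, 89.8 and 98.02. Tcap differed by 1.16 ± 0.31 (adjusted p = 0.0392), a call that most single-sample omissions ended. For piericidin 4 genes differed and 0 in the other direction (all genes 0.174% and 0.316%). At an unadjusted p under 0.05, 13 were higher and 3 lower, DESeq2 called 8 higher and 0 lower, and total counts gave 2 and 0. Of all 12656 genes, 1093 had such an unadjusted p. The 4 genes were Tcap (1.16 ± 0.26, adjusted p = 0.0431), at 0.929, 1.06 and 1.68 CPM with piericidin in day 1 cells, Myh7 (0.55 ± 0.11, adjusted p = 0.0267), at 83.5, 86.96 and 89.7, Actn2 (0.54 ± 0.10, adjusted p = 0.00976) and Ldb3 (0.46 ± 0.099, adjusted p = 0.03), at 117, 119.5 and 125. Each of these 4 calls was lost on leaving out at least 1 single sample.

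Myoblasts express few sarcomere genes, and 14 of the 45 could be tested there. Tpm1, Tpm2 and Tpm3 are among the 14, and whether their counts came from sarcomeric forms is not known. In luciferase myoblasts with piericidin, 6 rose and 3 fell (all genes 30.9% and 30.8%), median log2 fold change 0.16 (all genes -0.0037). With antimycin, 6 rose and 3 fell (all genes 32.1% and 31.1%), median log2 fold change 0.19 (all genes -0.0048), and with oligomycin, 5 rose and 3 fell (all genes 24.5% and 26.3%), median log2 fold change -0.13 (all genes -0.015). Scaling by total counts alone moved the median of all genes by -0.23, -0.30 and -0.13 on the log2 scale and these splits to 4 and 6, 4 and 5, and 4 and 5, so small changes are read relative to that shift. All luciferase DMSO samples sat in outer wells and all luciferase antimycin samples in inner wells, so antimycin and well position go together among these samples. Myom2, described after these genes, had the largest log2 rise with each of the 3 inhibitors, from a low level. Acta1 and Tpm2 also rose with all 3. Acta1 stood at 14.5, 15.6 and 19.1 CPM with DMSO, 26.5, 28.3 and 31.8 with piericidin (log2 fold change 0.86 ± 0.14, adjusted p = 4.89e-06), 81.7, 84.1 and 91.1 with antimycin (2.44 ± 0.14, adjusted p = 1.12e-15) and 21.4, 25.02 and 29.7 with oligomycin (0.65 ± 0.14, adjusted p = 0.000255). Ldb3 stood at 6.67, 8.04 and 9.82 with DMSO, 14.3, 14.97 and 15.5 with piericidin (log2 fold change 0.90 ± 0.18, adjusted p = 6.85e-05) and 16.8, 19.6 and 21.9 with antimycin (1.29 ± 0.18, adjusted p = 2.39e-07). Tpm2 stood at 247, 258 and 269.96 with DMSO, 339, 339 and 339.6 with piericidin (log2 fold change 0.43 ± 0.034, adjusted p = 3.04e-12), 354, 357 and 371 with antimycin (0.53 ± 0.034, adjusted p = 2.23e-14) and 288, 296 and 311 with oligomycin (0.22 ± 0.034, adjusted p = 2.22e-06). The treated samples of these genes lay above the DMSO samples wherever a value is given.

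Myom2 rose from a low level in myoblasts too. With oligomycin it went from 0.833, 0.916 and 1.297 to 8.98, 10.99 and 11.4 CPM (log2 fold change 3.37 ± 0.30, adjusted p = 6.09e-11). With piericidin it was 5.896, 9.28 and 11.1 and with antimycin 7.81, 8.29 and 8.48 CPM, values chosen after they were seen since the mean counts were under the naming rule (log2 fold change 3.14 ± 0.30, adjusted p = 2.12e-10, and 3.05 ± 0.30, adjusted p = 3.93e-10). Mylpf, chosen in the same way, fell from 1.198, 1.296 and 2.04 CPM to 0.454, 0.738 and 1.10 with piericidin (log2 fold change -0.93 ± 0.37, adjusted p = 0.031), 0.345, 0.493 and 0.566 with antimycin (-1.61 ± 0.40, adjusted p = 0.000873) and 0.346, 0.449 and 0.4603 with oligomycin (-1.81 ± 0.40, adjusted p = 0.000322). Tpm1 was 0.17 ± 0.032 with piericidin (adjusted p = 3.57e-05) and 0.25 ± 0.032 with antimycin (adjusted p = 5.55e-08), from 865, 877 and 899.7 CPM to 949.5, 962 and 989.9 with piericidin and 992, 996 and 1066 with antimycin, and both turned negative with total counts. It was 0.35 ± 0.032 with oligomycin (adjusted p = 1.37e-10), at 1072, 1126 and 1137 CPM. Tpm3, at 513, 533 and 556 CPM with DMSO, was 565, 581 and 592 with piericidin (log2 fold change 0.15 ± 0.036, adjusted p = 0.000575), which also turned negative with total counts, 577, 578 and 593 with oligomycin (0.14 ± 0.036, adjusted p = 0.00176, lost with total counts) and 433, 459.9 and 465 with antimycin (-0.19 ± 0.036, adjusted p = 2.85e-05). Des rose with antimycin from 392, 397 and 409 to 468, 497 and 502 CPM (log2 fold change 0.33 ± 0.043, adjusted p = 7.47e-08, lost with total counts). Tnnt2 fell from 105, 107 and 108 to 86.3, 88.4 and 93.2 (log2 fold change -0.21 ± 0.054, adjusted p = 0.00103).

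In LbNOX myoblasts, with piericidin, 4 rose and 1 fell (all genes 5.01% and 3.86%), median log2 fold change 0.18 (all genes -0.0023), and with antimycin, 8 rose and 1 fell (all genes 23.3% and 22.9%), median log2 fold change 0.42 (all genes 0.029). Acta1 rose from 13.01, 14.4 and 19.9 CPM to 28.5, 30.7 and 34.8 with piericidin (log2 fold change 1.01 ± 0.14, adjusted p = 5.86e-06) and 30.3, 30.4 and 37.1 with antimycin (1.08 ± 0.14, adjusted p = 1.81e-07). Tpm2 rose from 279.9, 288 and 289 to 360.4, 368 and 390.3 with piericidin (log2 fold change 0.41 ± 0.034, adjusted p = 2.11e-10) and 363, 371 and 381 with antimycin (0.42 ± 0.034, adjusted p = 1.81e-11). Tpm1 with piericidin went from 877, 879 and 921 to 1005, 1013 and 1083 (0.24 ± 0.032, adjusted p = 3.60e-06). Tnnt2 fell from 81.2, 82.8 and 85.1 to 63.4, 66.5 and 73.8 with piericidin (log2 fold change -0.27 ± 0.055, adjusted p = 0.0013) and 60.3, 62.2 and 68.01 with antimycin (-0.35 ± 0.055, adjusted p = 4.98e-06). With antimycin, Ldb3 rose from 4.93, 5.68 and 6.22 to 8.17, 11.1 and 11.6 (log2 fold change 0.92 ± 0.19, adjusted p = 0.000167). Actn3 went from 4.91, 5.94 and 7.78 to 8.46, 10.2 and 12.98 (0.80 ± 0.19, adjusted p = 0.000946). Des went from 308, 315 and 334 to 408, 414 and 429 (0.42 ± 0.043, adjusted p = 2.11e-09). Myom2 stood at 0.189, 0.323 and 0.606 CPM with DMSO, 1.70, 2.25 and 2.94 with piericidin and 1.92, 1.96 and 2.39 with antimycin. In the interaction, the antimycin response differed between LbNOX and luciferase myoblasts for 3 genes upward and 1 downward (all genes 24.7% and 26.8%). The rise of Acta1 was smaller with LbNOX, a difference of -1.36 ± 0.19 (adjusted p = 7.77e-07), and Actn3 (1.01 ± 0.28, adjusted p = 0.00337), Tpm3 (0.44 ± 0.051, adjusted p = 2.38e-08) and the low Mylpf differed upward. The piericidin response differed for 1 gene upward, Mylpf, and 1 downward (all genes 22.3% and 22%), Tpm3 (-0.16 ± 0.051, adjusted p = 0.0132), which is near 0 with total counts, where the split is 5 and 0.

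Oligomycin in LbNOX myoblasts and inhibitors in mitoLbNOX and NDI1 myoblasts were not compared by a test here. In LbNOX myoblasts with oligomycin, Myom2 stood at 3.46, 3.85 and 4.39 CPM and Acta1 at 21.1, 21.2 and 21.2, against 0.189, 0.323 and 0.606 and 13.01, 14.4 and 19.9 with DMSO. In mitoLbNOX myoblasts, Acta1 stood at 13.9, 17.0 and 18.2 CPM with DMSO, 26.8, 27.3 and 32.7 with piericidin and 56.7, 59.9 and 61.4 with antimycin. Myom2 stood there at 0.666, 1.09 and 2.24 with DMSO, 2.68, 2.94 and 3.14 with piericidin and 10.7, 11.2 and 12.3 with antimycin. In NDI1 myoblasts (n = 2), Acta1 stood at 8.38 and 11.2 with DMSO and 8.57 and 9.97 with piericidin. Myom2 stood at 0.8697 and 1.46 with DMSO and 1.55 and 1.59 with piericidin. With chloramphenicol for 48 hr in luciferase myoblasts (n = 2), 1 of 12 tested genes rose and 0 fell (edgeR, all genes 4.83% and 3.62%, with 0 lower at an unadjusted p under 0.05 and 0 by DESeq2). The gene was Myom2, at 0.441 and 0.7905 CPM with DMSO and 3.12 and 3.81 with chloramphenicol (log2 fold change 2.56 ± 0.65, adjusted p = 0.0452), and the call was lost on leaving out any of the 4 samples. In LbNOX myoblasts, where chloramphenicol was not tested, Myom2 was 0.481 and 1.93 with DMSO and 0.303 and 0.979 with chloramphenicol.

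**Figure D5:**
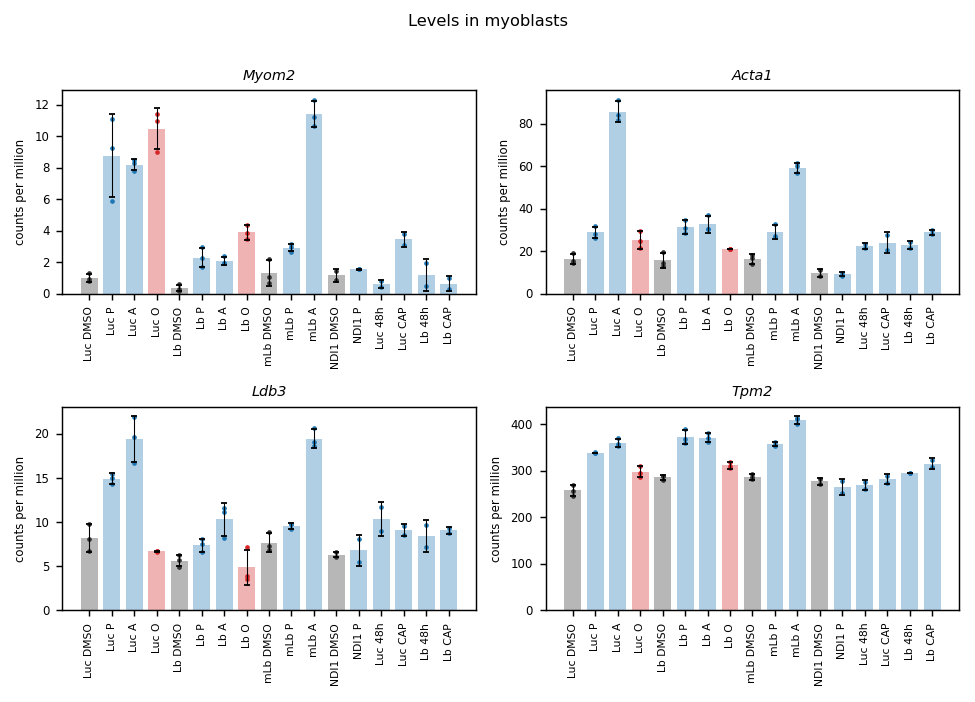
CPM of 4 sarcomere genes in myoblasts carrying luciferase (Luc), LbNOX (Lb), mitoLbNOX (mLb) or NDI1, with each sample as a point, bars at the mean and error bars of 1 SD (n = 2 or 3; P piericidin, A antimycin, O oligomycin, 48h DMSO for 48 hr, CAP chloramphenicol). Grey bars are DMSO for 10 hr, red bars are oligomycin and blue bars are the other conditions, including 48 hr of DMSO. Acta1 is highest with antimycin in luciferase myoblasts, at 81.7 to 91.1 CPM, and Myom2 in luciferase myoblasts is above all DMSO samples with each inhibitor.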

How the data were processed

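RNA-seq libraries (Smart-seq2, polyadenylated RNA, not strand-specific, paired-end) were made from 96 C2C12 samples. Per the labels and the study's methods, the authors demultiplexed with bcl2fastq 2.20.0.422, quantified with kallisto 0.44 with bias correction against Ensembl transcripts of GRCm38.p6 plus the transgenes, summed transcripts to genes and deposited the expected counts (estimated counts) per gene, which are whole numbers in the table. Everything else was computed here from these counts. Groups came from the sample labels. Labels do not say whether replicates were separate cultures, so p-values measure only the spread between these samples, which may be technical. None of 87 replicate pairs had identical counts.

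Counts were tested with edgeR 4.0.16 (R 4.3.3), a quasi-likelihood F test with TMM scaling and Benjamini-Hochberg adjustment over all genes tested, in 6 models giving 29 comparisons. A gene was kept when all replicates of 1 or more conditions of a model had 16 counts or more, and genes with an adjusted p under 0.05 were called. The SE of a log2 fold change was its size divided by the square root of F. Levels per kilobase used GENCODE M21 transcript lengths. Alternatives were DESeq2 1.42.0, its size factors, total counts, no filter, plate well position, a replicate block, the compared groups alone and single samples left out. The test was also run on simulated counts, which bears on the code and not on the results given here.

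The members and gene lists were chosen with earlier results of these data known. Genes named with full statistics were up to 8 called genes in each direction for cell states and up to 5 for treatments, those with the largest change and, for treatments, a mean of at least 50 counts. Where fewer than 3 were called, the gene with the lowest p was added, and isoform families were set side by side. Other values were chosen after they were seen, including those of Myom2 and Acta1 in myoblast conditions without a test. Among tested comparisons these were Actn2, Ttn, Xirp1, Smpx and Tpm3 with oligomycin, Actn2 and Ldb3 with piericidin, Ldb3 with BAM15 and Smpx and Tcap in 5% oxygen in myotubes, Tcap with oligomycin in day 1 cells, Mylpf and Myom2 in treated luciferase myoblasts, and Myom2 in treated LbNOX myoblasts.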

Additional observations from a re-analysis of the deposited data

Results flagged for a closer look

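The results here concern responses that differed between cell types by an interaction term (edgeR, adjusted p under 0.05). The response to oligomycin differed between myotubes and day 1 cells for 12 of 44 sarcomere genes, or 7 with well position as a covariate. All 12 were higher in myotubes, where 2.62% of all genes were called higher and 1.06% lower. The differences, myotubes minus day 1 cells on the log2 scale, were 1.16 for Tcap, 1.12 for Lmod2, 0.95 for Mybpc1, 0.76 for Myom1 and 0.75 for Myh8. The response to piericidin differed between the same cells for 4 of 44 genes, all higher in myotubes (all genes 0.174% higher and 0.316% lower), by 1.16 for Tcap, 0.55 for Myh7, 0.54 for Actn2 and 0.46 for Ldb3. Tcap had 2.999 to 3.73 CPM in untreated day 1 cells, so its differences rest on few counts.

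The response of myoblasts to piericidin differed between LbNOX and luciferase cells for 2 of 14 genes (all genes 22.3% higher and 22% lower). With libraries scaled by total counts 5 were higher and 0 lower. Tpm3 differed by -0.16, and by 0.0008 when libraries were scaled by total counts. The response to antimycin differed for 4 of 14 genes (all genes 24.7% higher and 26.8% lower), with 1.01 for Actn3, 0.44 for Tpm3 and -1.36 for Acta1. With total counts 5 were higher and 1 lower. Whether either share differs from that of all genes was not tested.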

How the results depend on the processing

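Of 29 counts of called sarcomere genes, 18 stayed within 1.5 times under every alternative. For the oligomycin response of myotubes against day 1 cells, 12 calls became 7 with well position as a covariate. For the piericidin response, 4 became 2 with total counts, 8 with DESeq2 and 0 to 4 with single samples left out, moving for every sample but day 1 piericidin replicate 1 and myotube DMSO replicate 3. For oligomycin within 5% oxygen, 7 became 3 with total counts, 4 with no filter, 4 with the compared groups alone and 2 to 5 with single samples left out, lowest without DMSO replicate 2. Piericidin in day 1 cells went from 13 to 6 to 9 with single samples left out. Piericidin in GFP myotubes went from 12 to 7 with total counts, 1 with the compared groups alone and 6 to 10 with single samples left out, lowest without DMSO replicate 1. LbNOX against GFP myotubes went from 0 to 2 with no filter, 2 with DESeq2 and 1 with the replicate block, and the oligomycin response between them from 0 to 1 with no filter. In LbNOX myoblasts, piericidin went from 5 to 3 with the compared groups alone. The piericidin response of LbNOX against luciferase myoblasts went from 2 to 5 with total counts, 1 with DESeq2, 4 with well position, 1 with the compared groups alone and 1 to 3 with single samples left out, with 1 left without luciferase DMSO replicate 1 or 2, luciferase piericidin replicate 1 or LbNOX piericidin replicate 1. The antimycin response went from 4 to 7 with no filter. Chloramphenicol went from 1 to 0 with DESeq2 (adjusted p not given for Myom2), the replicate block and each single sample left out (0 to 0). The causes were not tested.

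With total counts, Tpm1 in luciferase myoblasts reversed to -0.0633 with piericidin and -0.0443 with antimycin, Tpm3 with piericidin to -0.0814, and the Tpm3 piericidin response of LbNOX against luciferase myoblasts to 0.0008. The share of counts on the 45 genes was 0.2014% in luciferase myoblasts, 4.028% in day 1 cells and 5.2107% in myotubes when counts were divided by length, and 2.427% and 3.3689% in the latter 2 without Acta1.

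Samples with the same replicate number did not deviate together, with mean correlations of -0.0413 to 0.0537 over the 6 models, so the number was not taken as a pairing. The replicate block moved no other count of calls by over 1.5 times. For chloramphenicol the numbers correlated at -0.23, and a crossed replicate block, added after seeing the data, called 940 genes against 757 and 0 sarcomere genes either way. Well position could not be fitted for day 1 treatments. Libraries of 6458295 to 15366745 counts leave most sarcomere genes in myoblasts too low to test.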
